A study of Mus musculus with 16 samples.

Results

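Crem, Nr4a1, Nr4a2, Nr4a3, Sik1 and Ppargc1a are regulators of transcription, or of its regulators, whose genes are known to respond to cyclic AMP. They are 6 of the 46078 genes in a table of liver read counts, taken by a list of names that was drawn up with earlier results of these data known. The counts of members that passed are therefore not those of an unselected set. All 6 were found by symbol. Liver messenger RNA had been sequenced in 16 libraries, in 4 groups of 4. The animals in every group were C57BL/6 mice aged 22 weeks with diet-induced obesity and hepatic steatosis, so a lean liver was not part of the design. Mice of the Dicretin group received a co-agonist of the glucagon-like peptide 1 receptor and the glucagon receptor. Semaglutide, given to another group, is an agonist of the glucagon-like peptide 1 receptor. Calorie restricted mice were brought to an equivalent weight loss by diet, and Saline control mice received vehicle. Doses, length of treatment and sex are not given in the sources used here. Libraries are named by group and by the number in the submitters' titles.

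When glucagon binds its receptor on a hepatocyte, cyclic AMP rises and protein kinase A phosphorylates CREB, a factor that sits on cyclic AMP response elements in DNA. Coactivators of the CRTC family join CREB, and the genes switched on include both drivers of glucose production and brakes on the same pathway. NR4A receptors and PGC-1alpha (encoded by Ppargc1a) are known in mouse liver as drivers of gluconeogenic genes during fasting, whereas the inducible products of Crem and the kinase encoded by Sik1 are known as brakes.

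The DNA just upstream of 4 members is shown because the short core of the cyclic AMP response element, TGACG, recurs in that of the 3 NR4A genes. Each sequence below is the 250 bases before 1 start annotated by RefSeq (GRCm38.p6), 5′ to 3′ on the gene's strand, and 4 of the 6 members matched an entry. Only this 1 window per gene was searched, so DNA at any other start of the same gene is not covered. The Ppargc1a window lies at the outer 5′ end of its gene. Capitals mark TGACG or its reverse complement CGTCA.
Nr4a1, chr15:101266596-101266845, plus strand: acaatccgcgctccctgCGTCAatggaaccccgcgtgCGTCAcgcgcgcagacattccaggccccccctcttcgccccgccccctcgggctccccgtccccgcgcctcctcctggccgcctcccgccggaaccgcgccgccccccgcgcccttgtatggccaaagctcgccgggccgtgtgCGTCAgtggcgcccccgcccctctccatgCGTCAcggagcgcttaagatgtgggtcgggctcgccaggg
Nr4a2, chr2:57124004-57124253, minus strand: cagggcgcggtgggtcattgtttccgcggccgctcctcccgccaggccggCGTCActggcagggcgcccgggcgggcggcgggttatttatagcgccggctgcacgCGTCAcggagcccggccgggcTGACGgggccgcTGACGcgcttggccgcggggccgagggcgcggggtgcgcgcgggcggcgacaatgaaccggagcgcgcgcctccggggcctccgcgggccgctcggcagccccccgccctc
Nr4a3, chr4:48045055-48045304, plus strand: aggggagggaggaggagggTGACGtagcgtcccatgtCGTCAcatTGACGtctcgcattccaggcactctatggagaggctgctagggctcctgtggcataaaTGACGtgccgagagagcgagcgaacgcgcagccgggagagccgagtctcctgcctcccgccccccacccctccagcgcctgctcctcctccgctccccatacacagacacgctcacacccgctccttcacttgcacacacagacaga
Ppargc1a, chr5:51567726-51567975, minus strand: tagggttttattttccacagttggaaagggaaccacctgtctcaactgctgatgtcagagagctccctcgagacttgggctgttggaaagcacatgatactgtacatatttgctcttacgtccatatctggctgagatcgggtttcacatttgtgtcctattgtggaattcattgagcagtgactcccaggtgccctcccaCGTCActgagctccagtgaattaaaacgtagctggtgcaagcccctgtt
Nr4a1, Nr4a2 and Nr4a3 each held 4 copies of the core, and Ppargc1a held 1.

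Counted on both strands, at least 1 core was present in 17.77% of the 32851 promoter windows of the same length, and at least 4 were present in 0.137% of them, which is 45 windows. In Nr4a1 all 4 copies lay on the opposite strand, the nearest spanning positions -40 to -36 from the annotated start. Nr4a2 had 2 copies on each strand, all between -200 and -107. In Nr4a3 all copies but one lay on the gene's strand, and the 4 fell between -231 and -143. The single Ppargc1a copy lay at -49 to -45 on the opposite strand. The whole palindromic element TGACGTCA was in none of these 4 windows and in 1.546% of all windows. AAAGGTCA, the element bound by NR4A receptors as monomers, was also in none of the 4 and in 1.336% of all windows. A run of letters is a description of the sequence, not a binding site.

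**Figure D1:**
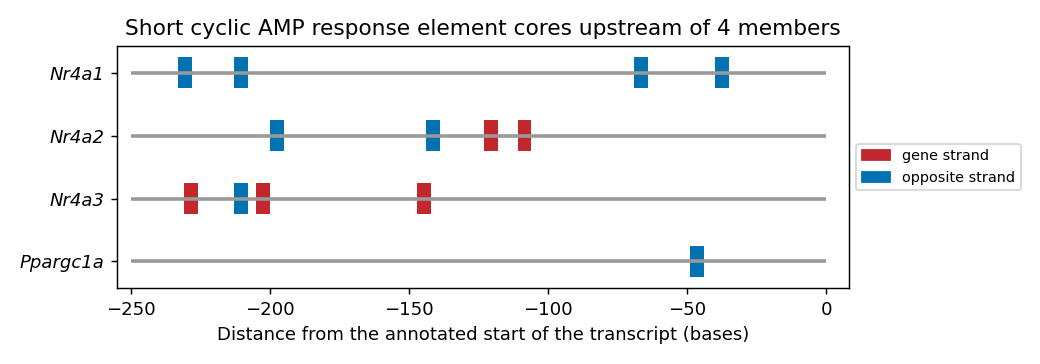
Positions of the short cyclic AMP response element core in the 250 bases upstream of Nr4a1, Nr4a2, Nr4a3 and Ppargc1a; the horizontal axis is distance in bases from the annotated transcript start, and colour gives the strand. The 3 NR4A genes have 4 marks each and Ppargc1a has 1, at -49 to -45.

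In the annotation that named the genes (GENCODE M21, GRCm38), Crem lies on the minus strand at chr18:3266048-3337748, Nr4a1 on the plus strand at chr15:101254269-101274795 and Nr4a2 on the minus strand at chr2:57106830-57124003. Nr4a3 lies on the plus strand at chr4:48045153-48086447, Sik1 on the minus strand at chr17:31844250-31855804 and Ppargc1a on the minus strand at chr5:51454250-51567726. The upstream windows of Nr4a1 and Nr4a3 reach into these wider gene spans, because RefSeq and GENCODE place the start differently. The Ppargc1a window shares only position 51567726 with its gene span. Reads were counted over whole genes, so the alternative transcripts of Crem, which include both activators and the inducible repressors, were not told apart. Gm6225 overlaps exons of Crem on the opposite strand and collected 43 counts over all 16 libraries, at most 7 in one. The 4 annotated genes inside introns of Ppargc1a collected 32, 2, 1 and 4 counts.

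Library totals ran from 12.144 to 18.755 M counts. Hepatocyte markers were abundant in all libraries, with 9 of them summing to 91410 to 107900 counts per M (CPM) in Dicretin libraries and 102400 to 125700 CPM in Saline control libraries. In a principal component analysis Semaglutide 11 scored 60.09 on the second component, against -1.387 to 15.3 for the other Semaglutide libraries, and Dicretin 14 scored -39.25, against -9.378 to 30.52 for its mates. Semaglutide 15 held 548.1 CPM of 6 skeletal muscle markers, while every other library had at most 0.1752 CPM. Calls that change without one of these libraries are given both ways.

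All 6 members were higher in Dicretin livers than in Saline control livers, and in each case every Dicretin library lay above every saline library. Their log2 fold changes ran from 2.83 for Ppargc1a to 5.37 for Nr4a3, with a median of 3.38, while the median over the 12910 genes tested was -0.005. Each passed edgeR's quasi-likelihood test at a Benjamini-Hochberg adjusted p under 0.05, taken over all tested genes. Over all genes 17.5% passed as higher and 19.2% as lower, 36.7% in either direction, and 15.7% had groups that did not overlap with Dicretin higher. By size of the log2 fold change the members ranked between 22 and 102 among all tested genes, and 0.775% of the genes passed with a change at or above that of the lowest member. Of the cell type markers, 4 of 9 for hepatocytes and 1 of 9 for endothelium were higher in Dicretin than in saline. Lower were 1 of 9 for hepatocytes, 2 of 10 for stellate cells and fibroblasts, 1 of 9 for lymphocytes, 1 of 5 for cholangiocytes and 1 of 2 for adipocytes, and their part in the members' difference was not tested. In whole liver, more RNA per cell and more cells that make it cannot be told apart.

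**Figure D2:**
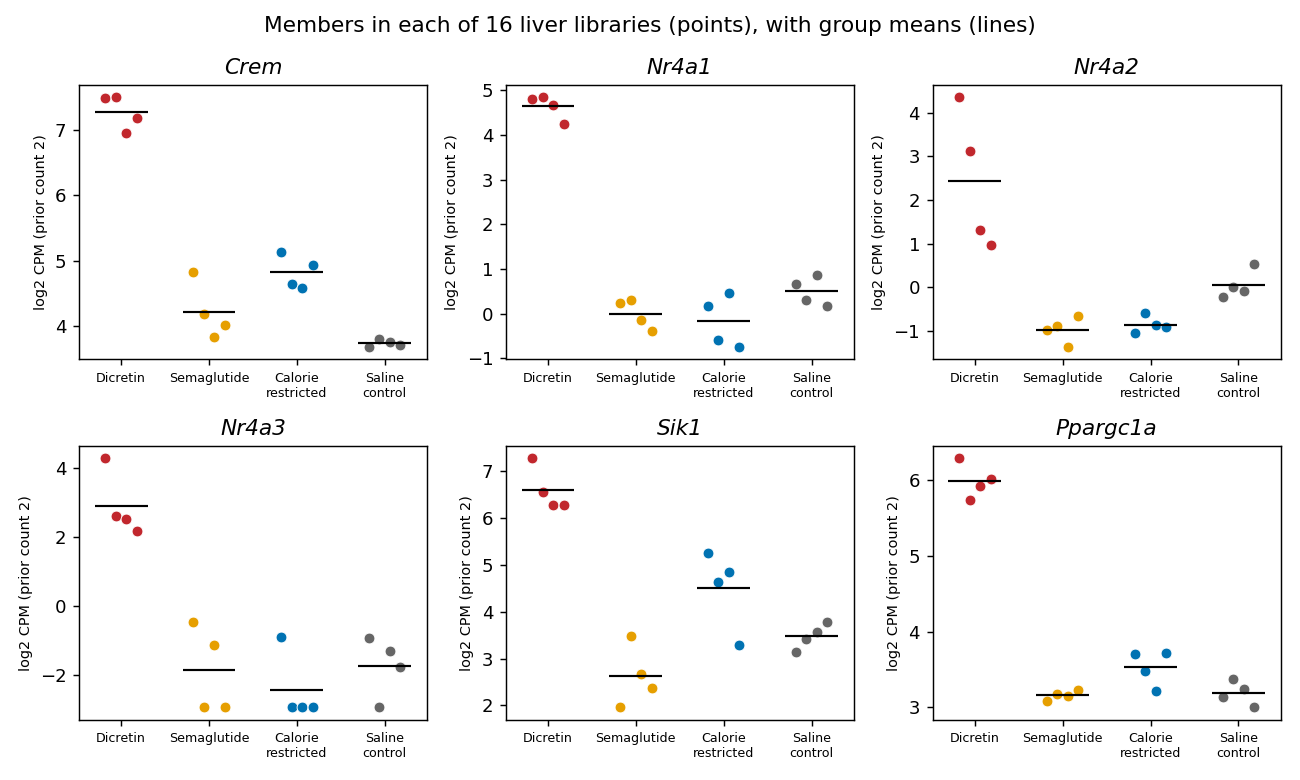
Level of each member in each of the 16 libraries, as log2 CPM with a prior count of 2; points are libraries, horizontal lines are means of 4, and each panel has its own vertical scale. For all 6 genes the 4 Dicretin points lie above every point of the other groups, and the Nr4a2 points of Dicretin spread from 1.82 to 20.25 CPM.

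Crem encodes a bZIP factor of the CREB family. It had 179, 179, 123 and 144 CPM in Dicretin libraries 14, 23, 64 and 65. Semaglutide libraries 11, 15, 31 and 51 had 28.1, 18.2, 14.1 and 16.1 CPM, Calorie restricted libraries 7, 8, 52 and 79 had 34.9, 24.8, 23.9 and 30.5 CPM, and Saline control libraries 35, 50, 73 and 78 had 12.8, 13.8, 13.4 and 12.98 CPM. The saline values were nearly the same in all 4 livers, all 4 Semaglutide and all 4 Calorie restricted values lay above them, and Dicretin stood far above all 3 groups. Against saline the log2 fold change in Dicretin was 3.56 ± 0.21 (SE, adjusted p = 1.37e-09 by edgeR), a fold of 11.78.

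Sik1 encodes salt-inducible kinase 1, which in mouse liver phosphorylates CRTC2 and so keeps this CREB coactivator out of the nucleus. Dicretin libraries, in the same order as for Crem, had 155, 94.2, 78.0 and 78.3 CPM. The other groups did not share a level: Semaglutide libraries had 3.75, 11.05, 6.29 and 5.07 CPM, Calorie restricted libraries 38.2, 24.7, 28.5 and 9.55 CPM, and Saline control libraries 8.66, 10.5, 11.7 and 13.7 CPM. Calorie restricted 79 lay among the saline livers while its 3 mates lay above all of them, and 3 of the 4 Semaglutide libraries lay below all of them. In Dicretin the log2 fold change over saline was 3.19 ± 0.37 (SE, adjusted p = 3.61e-06 by edgeR), a fold of 9.13.

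Nr4a1, Nr4a2 and Nr4a3 encode nuclear receptors that act without a known hormone and are set mainly by how much of them is made. Nr4a1 had 28.0, 28.5, 25.2 and 18.9 CPM in the Dicretin livers, and no other liver reached 2 CPM. Its values were 1.05, 1.105, 0.778 and 0.626 CPM in Semaglutide, 0.993, 0.535, 1.26 and 0.468 CPM in Calorie restricted and 1.46, 1.105, 1.70 and 0.993 CPM in Saline control libraries. Outside Dicretin these levels rested on 7 to 26 counts per library, and the 3 groups overlapped. The log2 fold change of Nr4a1 in Dicretin over saline was 4.24 ± 0.27 (SE, adjusted p = 3.84e-09 by edgeR), a fold of 18.9.

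Nr4a2 spread more widely within the Dicretin group than any other member. Dicretin libraries 14, 23, 64 and 65 had 20.25, 8.62, 2.37 and 1.82 CPM, so the highest was 11.1 times the lowest. Semaglutide had 0.375, 0.414, 0.259 and 0.501 CPM, Calorie restricted 0.350, 0.535, 0.419 and 0.401 CPM, and Saline control 0.731, 0.872, 0.817 and 1.32 CPM. Even the lowest Dicretin liver lay above the highest saline liver, and all Semaglutide and Calorie restricted livers lay below the lowest one. In Dicretin the log2 fold change over saline was 3.17 ± 0.57 (SE, adjusted p = 0.000301 by edgeR), and without Dicretin 14 it was 2.23 (adjusted p = 0.000971).

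Nr4a3 had few counts or none outside Dicretin. It had 366, 94, 84 and 51 counts in the Dicretin libraries, which is 19.6, 5.96, 5.69 and 4.42 CPM. Semaglutide libraries had 8, 0, 5 and 0 counts, Calorie restricted libraries 7, 0, 0 and 0 counts, and Saline control libraries 7, 0, 4 and 2 counts. Every library of Dicretin was above every other library, and 6 of the remaining 12 had no count. The log2 fold change in Dicretin over saline was 5.37 ± 0.84 (SE, adjusted p = 8.76e-05 by edgeR), 4.64 without Dicretin 14, and rested on 13 counts in all of saline. All 6 members passed the low-count filter, but Nr4a3 reached its level of 0.645 CPM in Dicretin libraries alone and Nr4a2 in Dicretin and Saline control libraries alone. Nr4a3 was therefore tested only because it was high in Dicretin, and its calls against the other groups are not free of that selection.

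Ppargc1a encodes PGC-1alpha, a coactivator that joins nuclear receptors such as HNF4alpha and the estrogen-related receptors. Its Dicretin libraries had 78.3, 53.3, 60.5 and 64.5 CPM. Semaglutide libraries had 8.40, 8.91, 8.75 and 9.27 CPM, Calorie restricted libraries 12.9, 11.0, 9.21 and 13.1 CPM, and Saline control libraries 8.66, 10.2, 9.32 and 7.86 CPM. The Semaglutide and saline livers overlapped throughout, Calorie restricted livers ran slightly higher with overlap, and Dicretin stood apart. At 2.83 ± 0.16 (SE, adjusted p = 1.08e-09 by edgeR) its log2 fold change over saline was the smallest of the 6 and had the smallest SE, a fold of 7.10.

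Between genes, levels were compared per kilobase of exon (RPKM). In Dicretin livers Crem averaged 26.5 ± 4.71 RPKM and Sik1 19.8 ± 7.14 RPKM (SD, n = 4), followed by Ppargc1a at 9.73 ± 1.597, Nr4a1 at 7.16 ± 1.26, Nr4a2 at 2.04 ± 2.11 and Nr4a3 at 1.49 ± 1.195 RPKM. Crem came before Sik1 in all 4 Dicretin libraries, whereas Nr4a1 passed Ppargc1a in Dicretin 23, and Nr4a3 passed Nr4a2 in Dicretin 64 and 65. In Saline control livers Crem at 2.25 ± 0.0738, Sik1 at 2.17 ± 0.416 and Ppargc1a at 1.37 ± 0.153 RPKM led, with Nr4a1 at 0.375 ± 0.0929, Nr4a2 at 0.231 ± 0.0653 and Nr4a3 at 0.0347 ± 0.0279 RPKM behind. Crem and Sik1 changed places between saline libraries. Calorie restricted 7, 8 and 52 had Sik1 first and Crem second, and in Calorie restricted 79 Sik1 came after Crem and Ppargc1a.

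The same 6 genes were higher in Dicretin than in Calorie restricted livers, the comparison at an equivalent weight loss. All 6 passed and none of the groups overlapped, against 15.1% of all tested genes that passed as higher (31.3% passed in either direction) and 13.2% whose groups did not overlap with Dicretin higher. The largest log2 fold change was that of Nr4a3, 6.27 ± 0.92 (SE, adjusted p = 5.29e-05 by edgeR), followed by Nr4a1 at 4.90 ± 0.29 and Nr4a2 at 4.28 ± 0.62. Nr4a3 passed the low-count filter only through its Dicretin libraries. Ppargc1a differed by 2.47 ± 0.16, Crem by 2.45 ± 0.20 and Sik1 by 2.01 ± 0.35 (adjusted p = 0.000332). Without Dicretin 14 the log2 fold change of Nr4a2 was 3.32 and that of Nr4a3 was 5.53. Without Calorie restricted 7, the one library of that group with Nr4a3 counts, the fitted value for Nr4a3 was 10.11, which depends on how the fit handles groups of zeros and is no bound. Markers of macrophages and Kupffer cells moved in this comparison too: 7 of 11 were higher in Dicretin, and their sum ranged from 215 to 628 CPM in Dicretin and from 80.6 to 303 CPM in Calorie restricted livers. Their part in the difference was not tested. In Dicretin against saline none of the 11 passed at an adjusted p under 0.05, and their sum was 226 to 388 CPM in saline.

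Against Semaglutide, which acts on the glucagon-like peptide 1 receptor without the glucagon receptor, Dicretin livers again had more of each member. All 6 passed without overlap, against 14.8% of all tested genes passing as higher (32.0% passed in either direction) and 12.0% without overlap and higher in Dicretin. Nr4a3 differed by a log2 fold change of 5.28 ± 0.84, Nr4a1 by 4.82 ± 0.29 and Nr4a2 by 4.40 ± 0.64 (SE, adjusted p = 0.000111, 1.83e-09 and 4.03e-05 by edgeR). Here too Nr4a3 passed the low-count filter only through its Dicretin libraries. Sik1 differed by 3.95 ± 0.39, the most among the members outside the NR4A family, Crem by 3.03 ± 0.20 and Ppargc1a by 2.86 ± 0.16. Without Dicretin 14 the Nr4a2 value was 3.45 and the Nr4a3 value 4.54, and without Semaglutide 11 the Nr4a3 value was 6.26. Hepatocyte markers were 2 higher and 5 lower of 9 in this comparison, summing to 91410 to 107900 CPM in Dicretin and 130400 to 160600 CPM in Semaglutide livers, and 2 of 11 macrophage markers were higher in Dicretin. Their part was not tested. The 3 comparisons share the Dicretin libraries and are therefore not independent of each other.

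**Figure D3:**
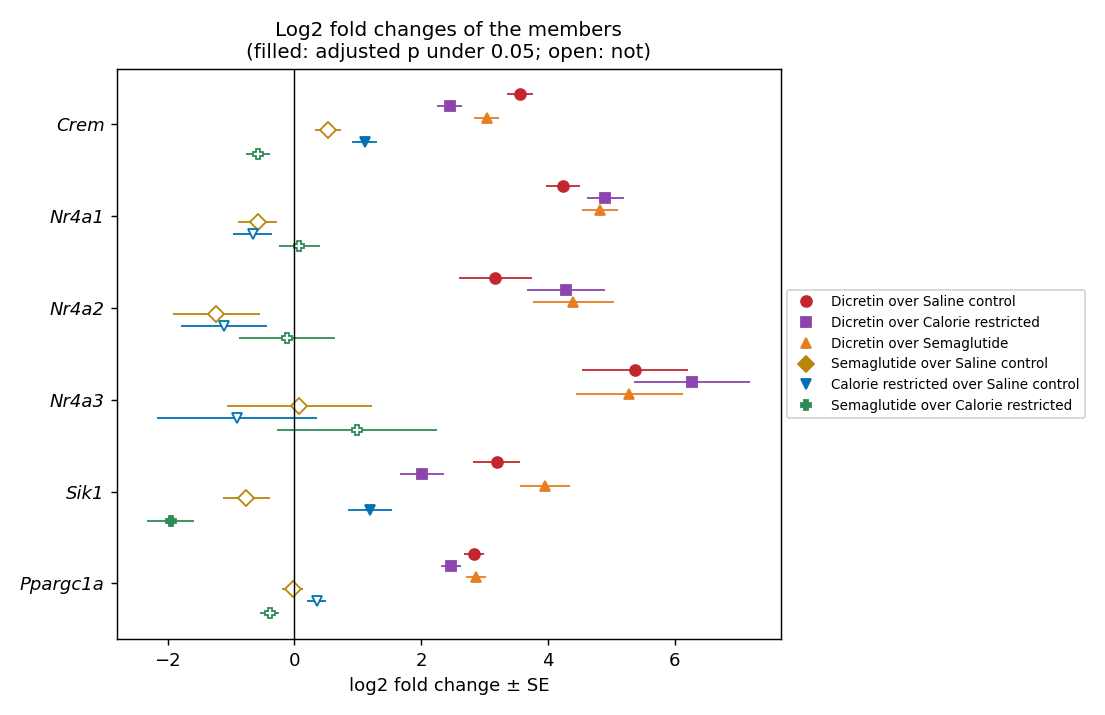
Log2 fold change of each member in the 6 comparisons, with bars of 1 SE; filled symbols had an adjusted p under 0.05 in edgeR's quasi-likelihood test. Dicretin over each of the other groups gives values of 2.01 or more for every member, while among the comparisons without Dicretin the filled symbols are Crem and Sik1 in Calorie restricted over Saline control and Sik1 in Semaglutide over Calorie restricted.

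None of the 6 members passed between Semaglutide and Saline control livers, where 4.18% of all tested genes passed in either direction. At an unadjusted p under 0.05 edgeR gave 1 member, Crem. At an adjusted p under 0.05 neither DESeq2 nor limma-voom called any member. Crem had a log2 fold change of 0.53 ± 0.20 (SE, adjusted p = 0.142) with no overlap, Semaglutide being higher, as did 6.42% of all genes. That value was 0.28 (adjusted p = 0.418) without Semaglutide 11, the library with the most Crem in its group. Nr4a2 did not overlap either, with Semaglutide lower, as did 7.75% of all genes, and the log2 fold change was -1.23 ± 0.69 (adjusted p = 0.351). The fit shares 1 estimate of the spread over all groups, so this SE also reflects the Dicretin libraries. The SD of log2 CPM of Nr4a2 was 1.59 in Dicretin, 0.29 in Semaglutide and 0.33 in Saline control livers. Without Dicretin 14 the Nr4a2 value was -1.22 (adjusted p = 0.17 by edgeR). For Ppargc1a the difference was -0.03 ± 0.16, with a 95% interval of -0.34 to 0.27. Sik1 differed by -0.76 (95% interval -1.48 to -0.04, unadjusted p = 0.0522 and adjusted p = 0.272 by edgeR). The interval of Sik1 leaves out 0 because it is approximate and narrower than the test implies. Nr4a1 differed by -0.58 (95% interval -1.18 to 0.03), and Nr4a3, with 0 to 8 counts per library, had a 95% interval of -2.16 to 2.32.

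In Calorie restricted livers 2 of the 6 members, Crem and Sik1, were higher than in Saline control livers, against 3.42% of all tested genes that passed as higher and 7.53% in either direction. Crem was higher by a log2 fold change of 1.11 ± 0.20 (SE, adjusted p = 0.00194 by edgeR), a fold of 2.15, without overlap, as 11.0% of all genes were. Sik1 was higher by 1.19 ± 0.35 (adjusted p = 0.0486), close to the threshold and with overlapping groups. The Sik1 call was lost in 15 of the alternative fits, 12 of which left out 1 library each, with adjusted p between 0.00903 and 0.165 over all alternatives; Crem passed in all of them. Nr4a2 again lay below saline without overlap, as did 11.9% of all genes, with a log2 fold change of -1.11 ± 0.68 (adjusted p = 0.346). That SE too reflects the Dicretin libraries, where the SD of log2 CPM was 1.59, against 0.2 in Calorie restricted livers. Without Dicretin 14 the Nr4a2 value was -1.1 (adjusted p = 0.172 by edgeR). Nr4a1 at -0.66 ± 0.31 (adjusted p = 0.207), Ppargc1a at 0.35 ± 0.15 (adjusted p = 0.174) and Nr4a3 at -0.91 ± 1.26 (adjusted p = 0.716) did not pass. The Nr4a3 value was -4.72 without Calorie restricted 7, the one library of its group with counts, a fitted value against zeros that is no bound. The Semaglutide and Calorie restricted groups were set against the same saline libraries.

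Semaglutide and Calorie restricted livers differed in Sik1 alone among the members, where 3.07% of all tested genes passed as lower in Semaglutide and 6.12% passed in either direction. Sik1 averaged 6.54 ± 3.18 CPM in Semaglutide and 25.2 ± 11.9 CPM in Calorie restricted livers (SD, n = 4 each), a log2 fold change of -1.95 ± 0.37 (SE, adjusted p = 0.00378 by edgeR). The groups overlapped through Semaglutide 15 at 11.05 CPM and Calorie restricted 79 at 9.55 CPM. Without Semaglutide 15, the library with muscle transcripts, the log2 fold change was -2.32 (adjusted p = 0.00182). Crem differed by -0.58 ± 0.19 (adjusted p = 0.0807), and without Semaglutide 11 by -0.82 (adjusted p = 0.00717), so that this call depends on one library. Ppargc1a differed by -0.39 ± 0.15 (adjusted p = 0.143), and the log2 fold changes of Nr4a1, Nr4a2 and Nr4a3 were 0.08 ± 0.33, -0.12 ± 0.76 and 0.99 ± 1.26. The Nr4a3 value was 0.01 without Semaglutide 11 and 4.81 without Calorie restricted 7, in that case fitted against a group of zeros.

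Within Dicretin the members did not vary by the same amount. The SD of log2 CPM over the 4 libraries was 1.59 for Nr4a2, 0.95 for Nr4a3 and 0.47 for Sik1, against 0.27 for Nr4a1, 0.26 for Crem and 0.23 for Ppargc1a. Over all tested genes the median SD in this group was 0.369 and the 90th percentile 0.76, so Nr4a2 and Nr4a3 lay above that percentile and the last 3 members lay below the median. Dicretin 14 was the highest of its group for Nr4a2, Nr4a3, Sik1 and Ppargc1a, and Dicretin 23 for Crem and Nr4a1. Dicretin 14 was also the highest for 33.7% of all tested genes and for 37.9% of those that passed as higher in Dicretin. Nr4a2 and Nr4a3 shared the order 14, 23, 64, 65, from high to low.

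**Figure D4:**
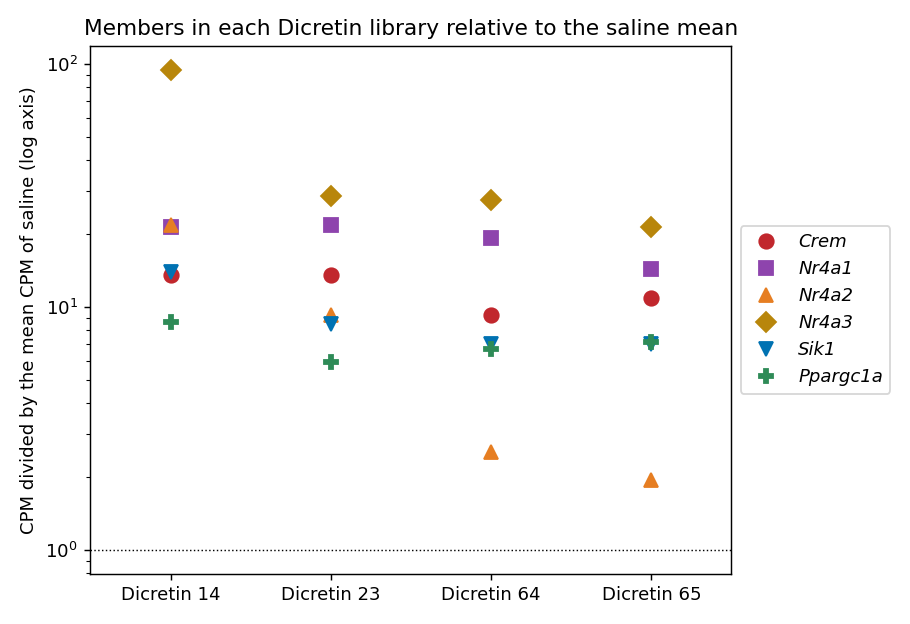
CPM of each member in each Dicretin library divided by its mean in the 4 Saline control libraries, on a log axis; the dotted line marks the saline mean. Nr4a2 and Nr4a3 are highest in Dicretin 14 and lowest in Dicretin 65, while Crem, Nr4a1 and Ppargc1a vary by at most 1.51-fold between libraries.

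Genes with the most similar pattern over the 16 libraries were found by the root mean square difference of log2 CPM after each gene was centred on its own mean, a measure in which 0 is an identical pattern. Ppargc1a had the closest neighbours: Acsl4, which encodes an acyl-CoA synthetase for arachidonic acid, at 0.20, Hip1r at 0.26 and C9orf72 at 0.29. Acsl4 averaged 317 ± 40.9 CPM in Dicretin and 41.8 ± 4.75 CPM in Saline control livers (SD, n = 4 each). It was also closest to Crem, at 0.35, followed by Sgk1, a kinase of sodium transport, at 0.38 and Atp1b1, a sodium pump subunit, at 0.41. Among the members themselves Crem and Ppargc1a were the closest pair, at 0.39.

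Sik1 was closest to Slc25a25, a mitochondrial carrier of ATP-Mg and phosphate, at 0.50, to the tyrosine aminotransferase gene Tat at 0.53, and to Etnppl, which encodes a phosphoethanolamine lyase, at 0.60. Slc25a25 averaged 649 ± 117 CPM in Dicretin, 34.9 ± 17.8 in Semaglutide, 190 ± 86.8 in Calorie restricted and 103 ± 30.0 CPM in Saline control livers. Since the genes were chosen for likeness to Sik1 over these libraries, a shared order of the groups is part of the choice and was not tested.

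Nr4a2 and Nr4a3 had more distant nearest neighbours than the other members. Nr4a1 was closest to Tmprss7 at 0.47, Tnfaip6 at 0.49 and Cerk at 0.61, of which Cerk, the ceramide kinase gene, averaged 44.7 ± 11.5 CPM in Dicretin and 3.26 ± 0.724 CPM in Saline control livers. Tmprss7 had at most 0.075 CPM in Semaglutide livers and Tnfaip6 at most 0.157 CPM in Calorie restricted livers, values that rest on a few counts. For Nr4a2 the nearest were Ccdc169 at 0.55, the alarmin gene Il33 at 0.61 and Col12a1 at 0.64, and for Nr4a3 they were Pappa2 at 0.87, Btg3 at 0.89 and the follistatin gene Fst at 0.95. Btg3, an antiproliferative gene, averaged 115 ± 35.4 CPM in Dicretin and 2.02 ± 0.470 CPM in Saline control livers. These neighbours were ranked over the same libraries, whose largest contrast is Dicretin against the rest, so the ranking in large part orders genes by the size of that contrast.

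Related genes were counted in Dicretin against saline with the 6 members left out, and the lists share some genes. Of 19 tested genes known to respond to cyclic AMP, 12 rose and 1 fell, with a median log2 fold change of 1.33 against -0.005 over all genes. Among all tested genes 17.5% passed as higher and 19.2% as lower. Igfbp1, the binding protein of insulin-like growth factors that glucagon is known to induce, averaged 655 ± 260 CPM in Dicretin and 16.6 ± 4.26 CPM in Saline control livers, a log2 fold change of 5.31 ± 0.39 (SE, adjusted p = 1.52e-08 by edgeR). Tat averaged 4488 ± 530 CPM in Dicretin and 528 ± 126 CPM in Saline control livers. Pck1, which encodes the cytosolic enzyme that commits oxaloacetate to glucose, rose by 1.57 ± 0.22 (adjusted p = 2.5e-05) and the antiproliferative gene Tob1 by 1.33 ± 0.19 (adjusted p = 2.4e-05). Of 13 gluconeogenic genes, 8 rose and 2 fell, beside the same 17.5% and 19.2% over all tested genes, with a median log2 fold change of 0.52.

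The immediate early genes outside the NR4A family, which respond fast to many signals, were tested as 19 genes, of which 10 rose, none fell and 9 did not pass, with a median of 0.62. Over all tested genes 17.5% passed as higher and 19.2% as lower. Btg2 averaged 47.5 ± 11.9 CPM in Dicretin and 9.70 ± 2.44 CPM in Saline control livers, and it was lower than saline in Semaglutide, by -0.95 ± 0.21 (adjusted p = 0.0155), and in Calorie restricted livers, by -0.94 ± 0.21 (adjusted p = 0.0112). Dusp1, a phosphatase of MAP kinases, rose by 1.68 ± 0.24 in Dicretin over saline, Csrnp1 by 1.54 ± 0.23 and Jund by 0.80 ± 0.14. In Dicretin against Calorie restricted livers 14 of the 19 rose, and against Semaglutide 9 rose and 1 fell. Over all tested genes 15.1% passed as higher in Dicretin than in Calorie restricted livers, and 14.8% as higher than in Semaglutide livers.

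Genes upstream of the members included both higher and lower ones, against 17.5% higher and 19.2% lower over all tested genes. Among 11 genes of CREB and its coactivators, Creb1 rose, with 16.1 ± 3.05 CPM in Dicretin and 11.5 ± 0.278 CPM in Saline control livers (log2 fold change 0.48 ± 0.14, adjusted p = 0.0133 by edgeR), Crtc3 fell by 0.86 (adjusted p = 0.0213) and 9 did not pass. Of 12 tested genes between the glucagon receptor and protein kinase A, 1 rose and 3 fell. The glucagon receptor gene Gcgr fell, averaging 133 ± 26.6 CPM in Dicretin and 225 ± 12.3 CPM in Saline control livers, and Adcy6, an adenylyl cyclase, fell by 1.62 (adjusted p = 0.000122). Prkar1a, a regulatory subunit that holds protein kinase A inactive, rose by 0.78 ± 0.11 (adjusted p = 2.91e-05).

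Among 15 genes that end the signal, mostly phosphodiesterases, 4 rose and 1 fell, beside 17.5% higher and 19.2% lower over all tested genes. Pde10a averaged 20.1 ± 13.6 CPM in Dicretin and 0.265 ± 0.207 CPM in Saline control livers. Pde4b averaged 38.4 ± 12.4 CPM in Dicretin and 10.7 ± 2.30 CPM in Saline control livers, and Pde4d 7.33 ± 2.16 CPM in Dicretin and 2.91 ± 0.651 CPM in Saline control livers. Pde4c was the one that fell, by 1.89 on the log2 scale (adjusted p = 8.67e-05). Pde4b also rose in Calorie restricted livers over saline, by 0.94 ± 0.28 (adjusted p = 0.0477).

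Of 11 relatives and substrates of SIK1, 2 were higher and 3 lower in Dicretin than in saline, shares near the 17.5% higher and 19.2% lower over all tested genes. Sik3, a related kinase, rose by 0.69 ± 0.22 (adjusted p = 0.0189) and Mef2d, which encodes a transcription factor held back by class IIa deacetylases, by 1.5 ± 0.29 (adjusted p = 0.00059), while Hdac5, a deacetylase that SIK kinases phosphorylate, fell by 1.84 (adjusted p = 6.97e-07). Of 13 partners of PGC-1alpha, 3 were higher and 3 lower, also near the shares over all genes. Esrra, the estrogen-related receptor alpha gene, averaged 88.1 ± 24.3 CPM in Dicretin and 30.2 ± 2.96 CPM in Saline control livers. Hnf4a rose by 0.82 ± 0.19 (adjusted p = 0.00274) and Nrf1 by 0.64 ± 0.15 (adjusted p = 0.00296), and the bile acid receptor gene Nr1h4 fell by 1.0 (adjusted p = 0.000189).

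Of 16 mitochondrial genes known as PGC-1alpha targets, 5 were higher and 4 lower, beside 17.5% and 19.2% over all tested genes, with a median log2 fold change of 0.18. Idh3a, a subunit of isocitrate dehydrogenase, averaged 138 ± 40.8 CPM in Dicretin and 36.6 ± 2.30 CPM in Saline control livers, and the ATP synthase gene Atp5b 1977 ± 53.0 CPM in Dicretin and 1268 ± 61.7 CPM in Saline control livers. Cox4i1, a cytochrome oxidase subunit, rose by 0.83 ± 0.25 (adjusted p = 0.015).

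**Figure D5:**
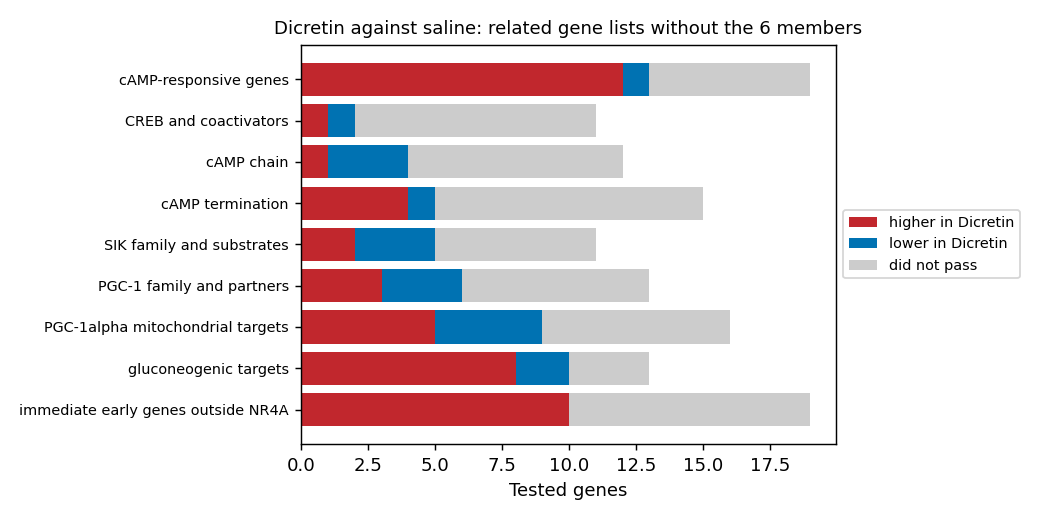
Number of tested genes in each related list that were higher, lower or did not pass in Dicretin against Saline control (adjusted p under 0.05, edgeR), with the 6 members left out and some genes in more than one list. Of the cyclic AMP-responsive genes 12 of 19 are higher, and of the genes of CREB and its coactivators 1 of 11 is, beside 17.5% of all tested genes.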

How the data were processed

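Trizol RNA from frozen liver went into directional libraries after poly(A) selection, per the labels' protocols. Per the submitters' processing notes, TopHat2 2.1.1, featureCounts and build mm10 were used. Counting options, strand setting and annotation release are not given in the sources used here. The authors deposited raw counts per gene for 46078 Ensembl identifiers in 16 libraries, without normalization, and no libraries were identical. Symbols (45143 identifiers), exon lengths and positions came from GENCODE M21 (GRCm38).

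In R 4.3.3, edgeR 4.0.16 was run with filterByExpr defaults (12910 genes left), TMM scaling and glmQLFit (robust) with 1 mean per group over all 16 libraries; the common biological coefficient of variation was 0.24. Each of 6 comparisons was tested with glmQLFTest, p-values were adjusted by Benjamini-Hochberg over all tested genes within a comparison, and a gene passed under 0.05. The SE was the absolute log2 fold change divided by the square root of F, and 95% intervals used 1.96 SE. These intervals are approximate and narrower than the F test implies. CPM used TMM-scaled totals. The model was checked on simulated counts. DESeq2 1.42.0 and limma 3.58.1 served as alternatives.

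The members and gene lists were chosen with earlier results of these data known. Named genes were the members, up to 4 per related list with the smallest p in Dicretin against saline, and the 3 genes most like each member, predicted genes left out; 1 gene that this rule picks is not reported here, and values in other comparisons were given for some of these. The labels do not state that each library came from a separate mouse, so p-values cover the spread between these samples.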

Additional observations from a re-analysis of the deposited data

Results flagged for a closer look

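A library was picked out when it stood apart from the other 3 of its group by the gap rule of Dixon at 95%. The rule was run on 200 sets of 4 values, for the members and the other named genes. For normally spread values chance alone flags about 1 in 20 such sets. A set with counts in 1 library and none in its mates is always flagged, so that rate does not hold for sets near 0. No cause was tested.

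Among the members, Nr4a3 had 19.6 CPM in Dicretin 14, against 4.42 to 5.96 CPM in the other Dicretin libraries, and 0.409 CPM in Calorie restricted 7, whose mates had no count. Dicretin 14 was also apart, and higher, for Mef2d at 65.3 CPM (mates 27.3 to 30.2), Col12a1 at 39.9 CPM (mates 7.01 to 10.7), Pappa2 at 13.9 CPM (mates 2.60 to 4.27) and C9orf72 at 128 CPM (mates 48.2 to 60.4). Dicretin 65 was lower for Hdac5, at 7.62 CPM (mates 11.7 to 12.4).

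In Semaglutide, library 11 was lower for Hnf4a at 262 CPM (mates 525.8 to 556), and it was the one library with a count for Tmprss7, at 0.075 CPM. Library 31 had 0 CPM of Tnfaip6 (mates 0.0626 to 0.075), and library 51 alone had Ccdc169, at 0.0626 CPM. In Calorie restricted livers, library 79 had 57.1 CPM of Igfbp1 (mates 21.8 to 26.5), library 8 had 172 CPM of Nr1h4 (mates 131 to 136), library 52 had 15.2 CPM of Hip1r (mates 24.3 to 25.7), and library 52 alone had Tnfaip6, at 0.157 CPM. In Saline control livers, library 35 had 3.88 CPM of Pde4d (mates 2.48 to 2.65), library 50 had 33.7 CPM of Sik3 (mates 42.0 to 42.9), and library 50 alone had Tnfaip6, at 0.0582 CPM. The values under 1 CPM rest on a few counts.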

How the results depend on the processing

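All 6 members passed in each of the 3 Dicretin comparisons under 8 other settings and on leaving out each of the 16 libraries, and none passed in Semaglutide against Saline control under any of them. In Calorie restricted against Saline control 1 member (Crem) passed under limma-voom, without the low-count filter and with only the 2 groups compared, and 1 to 2 on leaving out 1 library. In Semaglutide against Calorie restricted 2 passed with Semaglutide 11 and Dicretin 14 left out, and 1 to 2 on leaving out 1 library. Of the members' log2 fold changes, 831 kept direction and side of the threshold, 15 lost and 2 gained it, and 12 changed sign, none of them called. The last were Nr4a3 in Semaglutide against Saline control (-0.43 under limma-voom, -0.90 with Semaglutide 11 and Dicretin 14 left out, -0.90 to 0.66 on leaving out 1 library), Ppargc1a there (-0.09 to 0.04), and in Semaglutide against Calorie restricted Nr4a1 (-0.01 with Semaglutide 11 and Dicretin 14 left out, -0.11 to 0.37 on leaving out 1 library) and Nr4a2 (-0.28 to 0.03). Nr4a2 and Nr4a3 have no value in some fits with only the 2 groups compared, where the filter removed them. Over all genes, the count called in Dicretin against Semaglutide was 4128 and 2658 with only the 2 groups compared. In Semaglutide against Saline control it was 539, 982 under the DESeq2 Wald test and 256 to 778 on leaving out 1 library (256, 268 and 300 without Saline control 35, 50 and 73). In Calorie restricted against Saline control it was 972, then 1528 under the DESeq2 Wald test, 2569 with only the 2 groups compared, 1880 with Semaglutide 11 and Dicretin 14 left out, and 502 to 1368 on leaving out 1 library (502 to 556 without Calorie restricted 7 or Saline control 35, 50 or 73). In Semaglutide against Calorie restricted it was 790, then 1292 under the DESeq2 Wald test and 445 to 1167 on leaving out 1 library (lowest without Calorie restricted 7 or 52 or Semaglutide 31 or 11). The cause was not tested. No paired analysis was possible because the 16 library numbers are all different. Outside Dicretin, Nr4a3 rested on at most 8 counts per library, and its 95% interval in Semaglutide against Saline control ran from -2.16 to 2.32.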
